A study of Mus musculus with 8 samples.

Results

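The genes described here are 8 genes used to recognise plasma cells and memory B cells: Jchain, Prdm1, Xbp1, Mzb1, Sdc1, Cd27, Cd80 and Nt5e. They were named as a set and not by a measured value, though with earlier results of these data known. They are 8 of the 26160 genes with a summed level in the pre-B tables. Their transcripts were those that the submitters' tables pair with the 8 symbols, and their accessible regions were the peaks annotated to the same symbols. Of the 8 genes, 5 reached the filter of a mean of 1 TPM (the share of a library's transcripts, scaled for transcript length) over the 4 pre-B libraries (Prdm1, Xbp1, Mzb1, Sdc1 and Cd27), and 3 stayed below it (Jchain, Cd80 and Nt5e).

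The data are 8 libraries from C57BL/6 mice of 6 to 10 weeks. RNA-seq was made from sorted pre-B cells from bone marrow, with 2 libraries per genotype, each from pooled mice, and Omni-ATAC-seq from sorted LSK cells (lineage-negative, Sca-1+, c-Kit+ haematopoietic precursors), also with 2 libraries per genotype. Mutant mice, labelled DIDO3 MUT and called Dido1ΔE16 here, carried a floxed and a deleted allele of exon 16 of Dido1 together with a Vav1-driven Cre recombinase and a conditional EYFP reporter. WT littermates carried the same Cre and reporter with 1 floxed and 1 wild type allele, so both groups expressed the recombinase throughout blood-forming cells. With 2 libraries against 2, an exact permutation test cannot give a two-sided p below 0.333. The labels do not say whether replicates came from separate litters, so the p-values measure only the spread between these libraries.

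Plasma cells are the antibody-secreting end stage of the B lineage. Prdm1 encodes Blimp1, the repressor that shuts down the B cell programme, and Xbp1 encodes the factor that enlarges the secretory pathway after its RNA is cut by the sensor Ern1. Jchain joins IgM and IgA into polymers, Mzb1 is a chaperone of the endoplasmic reticulum that assists IgM assembly, and Sdc1 (CD138) is the surface proteoglycan by which plasma cells are usually sorted. Memory B cells are long-lived antigen-experienced cells, distinguished in the mouse by Cd80, the ligand of Cd28 and Ctla4, and Nt5e (CD73), which makes adenosine from AMP. Cd27 is a receptor of the tumour necrosis factor family that marks memory B cells in humans and is also carried by T, NK and progenitor cells. Pre-B cells precede all of these stages and have not met antigen.

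Exon 16 of Dido1, the targeted exon (chr2:180657963-180662583, mm10), served as a check of the labels. Its coverage, divided by the coverage that stands for 1 TPM in the same library, was 24.6 and 21.8 in WT but 0.295 and 0.0843 in Dido1ΔE16. Markers of pre-B cells, Vpreb1, Igll1, Rag1 and Ebf1 among them, were detected in all 4 libraries. Vpreb1, a surrogate light chain component of early precursors, stood at 108 and 40.9 TPM in WT and 1222 and 738 TPM in Dido1ΔE16, and Igll1, its partner, at 112 and 34.4 TPM in WT and 424 and 252 TPM in Dido1ΔE16. Neither gene was called (adjusted p = 0.191 for Vpreb1 and 0.327 for Igll1, limma). Of the 11 pre-B markers 7 had a log2 fold change above 0 and 4 below it, with a median of 0.093. Both Dido1ΔE16 values lay above both WT values for 3 markers, as for 27.1% of all genes tested. They lay below for 2, Pax5 and Ebf1, as for 15.6% of all genes tested. The part of the Vpreb1 and Igll1 difference in the members' values was not tested. Markers of other lineages differed between libraries of one genotype. The summed TPM of 12 neutrophil and monocyte markers was 262 and 2379 in WT and 1175 and 10646 in Dido1ΔE16, and that of the erythroid markers in the files was 302 and 922 in WT and 680 and 8649 in Dido1ΔE16. Dido1ΔE16 replicate 2 was therefore the library with most RNA of both kinds. Of 12 markers of T and NK cells, 6 were listed at 0 in all 4 libraries, Cd3e, Cd3g, Cd4 and Cd8a among them, and Cd2, which B lineage cells also express, made up most of the sum of the rest, at 582 and 1052 TPM in WT and 665 and 684 TPM in Dido1ΔE16. Thy1 was listed at 0 in both WT libraries and at 3.22 and 3.68 TPM in Dido1ΔE16. Nkg7 was listed at 16.3 TPM in Dido1ΔE16 replicate 2 and at 0 in the other libraries. Lck went the other way, at 22.3 and 18.4 TPM in WT and 12.6 and 15.3 TPM in Dido1ΔE16. Cd3d overlapped, at 0 and 1.25 TPM in WT and 0.967 and 2.36 TPM in Dido1ΔE16. Of the 5 T and NK markers tested 3 had a log2 fold change above 0 and 2 below it. Of 8 plasma cell markers outside the members, Tnfrsf17 was listed at 0 throughout, and the sum was 469 and 476 TPM in WT and 545 and 542 TPM in Dido1ΔE16. Slamf7 made up the largest part of this sum. Of the 7 tested 5 had a log2 fold change above 0 and 2 below it. Both Dido1ΔE16 values lay above both WT values for 4, as for 27.1% of all genes tested. They lay below for 1, Derl3, as for 15.6% of all genes tested. The part of such cells in the members' values was not tested. In a bulk library fewer cells of a type and less RNA per cell cannot be told apart.

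No member was called in pre-B cells. Calls were made with limma over 11870 genes, at a Benjamini-Hochberg adjusted p under 0.05 together with a change of 0.6 or more on the log2 scale in either direction. Over all genes tested, 0.0505% were called. At an unadjusted p under 0.05, 1 of the 5 members tested remained, which was Sdc1, against 11.6% of all genes. Mzb1 and Cd27 lay higher in both Dido1ΔE16 libraries than in both WT libraries, as did 27.1% of all genes tested. Sdc1 lay lower in both, as did 15.6% of all genes. Xbp1 and Prdm1 overlapped between the genotypes.

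**Figure D1:**
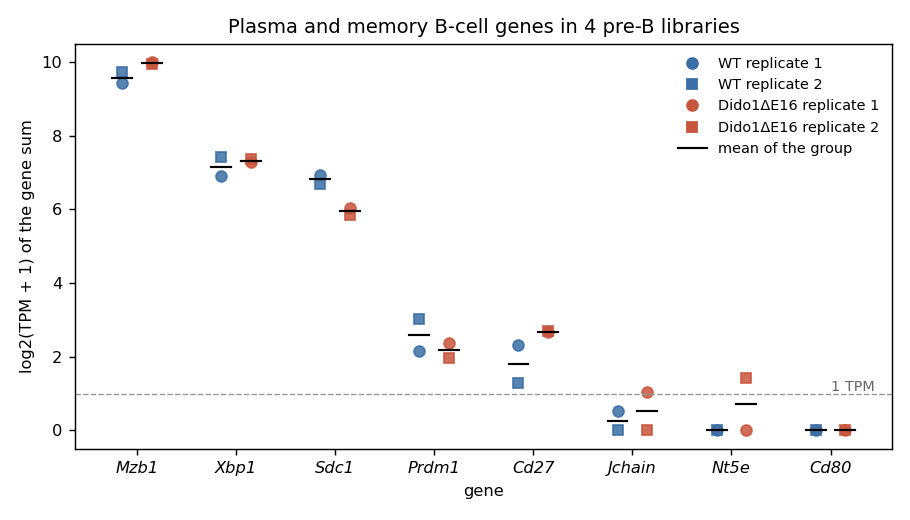
Level of each of the 8 genes as log2(TPM + 1) of the gene sum (vertical axis) in the 4 pre-B libraries, with circles for replicate 1, squares for replicate 2 and a black line for the mean of each genotype. Mzb1 lies highest in every library, Xbp1 and Sdc1 follow, Prdm1 and Cd27 lie between 1.44 and 7.10 TPM, and Jchain, Nt5e and Cd80 lie at or near the baseline.

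The plasma cell regulators were present at very different levels. Prdm1 stood at 3.50 and 7.10 TPM in the WT libraries and at 4.197 and 2.91 TPM in the Dido1ΔE16 libraries. The highest and the lowest value came from different genotypes and the groups overlapped, with a log2 fold change of -0.42 (SE 0.44, adjusted p = 0.754, limma). Without WT replicate 2 the log2 fold change was 0.0041, so the sign of the Prdm1 difference came from that library. All of the Prdm1 signal was placed on transcript uc007ezu.3 (chr10:44437174-44458748, 8 exons, minus strand), and 2 other models, uc007ezv.3 and uc007ezw.1, were listed at 0 in all 4 libraries. Between 6 and 7 of the 8 exons had reads, at a mean coverage of 1.35 to 3.31 reads per base.

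Xbp1 was far higher, at 119 and 170 TPM in WT and 154 and 165 TPM in Dido1ΔE16. The mean was 145 ± 36.3 TPM (SD, n = 2) in WT and 159 ± 7.70 TPM (SD, n = 2) in Dido1ΔE16, with a log2 fold change of 0.16 (SE 0.21, adjusted p = 0.811, limma). The Dido1ΔE16 values fell inside the WT range, and without WT replicate 1 the log2 fold change was -0.096. The 5 exons of uc007hwm.2 (chr11:5520641-5525993, plus strand) carried the whole signal, while the model with a shorter exon 4, uc007hwn.2, was listed at 0. None of these models splits exon 4, where Ern1 removes a short intron on activation, so the tables do not separate the cut from the uncut RNA.

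The secretory members fell at opposite ends of the scale. Mzb1 was among the most abundant RNAs of these cells, at 685 and 847 TPM in WT and 1017 and 989 TPM in Dido1ΔE16, which placed it 167th and 131st in the WT libraries and 101st in both Dido1ΔE16 libraries among all genes. Its mean was 766 ± 115 TPM in WT and 1003 ± 20.1 TPM in Dido1ΔE16 (SD, n = 2 each), at a log2 fold change of 0.40 (SE 0.15, adjusted p = 0.450, limma). The groups did not overlap, and the log2 fold change lay between 0.24 and 0.55 when single libraries were left out. Jchain, by contrast, was listed at 0.440 and 0 TPM in WT and at 1.07 and 0 TPM in Dido1ΔE16. Each genotype had 1 library with reads and 1 without, on the only model, uc008xzu.2 (chr5:88519809-88527897, minus strand). In WT replicate 1 the reads lay in 1 of the 4 exons, the 3′ one, at a mean coverage of 0.274, and in Dido1ΔE16 replicate 1 they lay in all 4 exons at a mean coverage of 0.692.

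Sdc1 (uc007nac.1, chr12:8771396-8793687, plus strand) was the member with the lowest p-value. It stood at 121 and 102 TPM in the WT libraries and at 64.4 and 57.0 TPM in the Dido1ΔE16 libraries. Both mutant values were below both WT values, with means of 112 ± 13.4 and 60.7 ± 5.19 TPM (SD, n = 2 each). The fitted fold was 0.548 on the log2(TPM + 1) scale, a log2 fold change of -0.87 (SE 0.16). The unadjusted limma p was 0.00454 and the adjusted p was 0.222, and leaving out single libraries gave log2 fold changes between -0.99 and -0.75. In rank, Sdc1 went from 1780th and 2016th in WT to 3488th and 3729th in Dido1ΔE16.

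Of the memory cell genes only Cd27 (uc009duc.1, chr6:125232622-125237027, minus strand) passed the filter. It was listed at 4.02 and 1.44 TPM in WT and at 5.34 and 5.51 TPM in Dido1ΔE16. The Dido1ΔE16 libraries were the higher ones, with a log2 fold change of 0.88 (SE 0.47, adjusted p = 0.591, limma) that was 1.39 without WT replicate 1 and 0.36 without WT replicate 2. Mean coverage was 0.674 to 3.47 reads per base, and Cd27 lies inside an intron of opposite-strand transcripts of Vamp1 and E130112N10Rik, whose unspliced RNA cannot be told apart from it where counting does not use strand.

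Cd80 was listed at 0 in all 4 libraries for both models paired with it, the longer being uc007zez.2 (chr16:38455561-38495739, plus strand). A single-exon transcript at the 3′ end of the gene by GENCODE, uc029sxd.1 (chr16:38493644-38496334), which the submitters' tables do not pair with Cd80, stood at 0.176 and 0.296 TPM in WT and at 2.62 and 1.46 TPM in Dido1ΔE16. Adding such transcripts to the members, an alternative chosen after seeing the data, brought Cd80 past the filter at a log2 fold change of 1.27 (SE 0.52, adjusted p = 0.480, limma) while its other models stayed at 0. Nt5e was listed at 0 in 3 libraries and at 1.71 TPM in Dido1ΔE16 replicate 2, where 6 of the 9 exons of uc009qyj.2 (chr9:88327609-88372089, plus strand) had reads. That library also held most neutrophil, monocyte and erythroid RNA, and whether this RNA carried the Nt5e reads was not tested. A listed 0 can also be a failed estimate: Ndufa5, a subunit of respiratory complex I that every cell uses, was listed at 0 in both WT libraries.

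Ordered by level, Mzb1 came first, its lowest value of 685 TPM lying above 170 TPM, the highest of Xbp1. Xbp1 and Sdc1 overlapped in WT, and were apart in Dido1ΔE16, where Xbp1 stood at 154 and 165 TPM and Sdc1 at 64.4 and 57.0 TPM. Prdm1 and Cd27 overlapped in WT and were apart in Dido1ΔE16, where Cd27 was the higher, and Jchain, Nt5e and Cd80 formed the low end, with no value above 1.71 TPM. In pattern over the 4 libraries, by the root mean square difference of log2(TPM + 1) around the gene mean, the tested genes most like Jchain were Sirt4 (0.106), Fam189b (0.107) and AK045578 (0.111), all of them higher in replicate 1 than in replicate 2 of both genotypes.

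**Figure D2:**
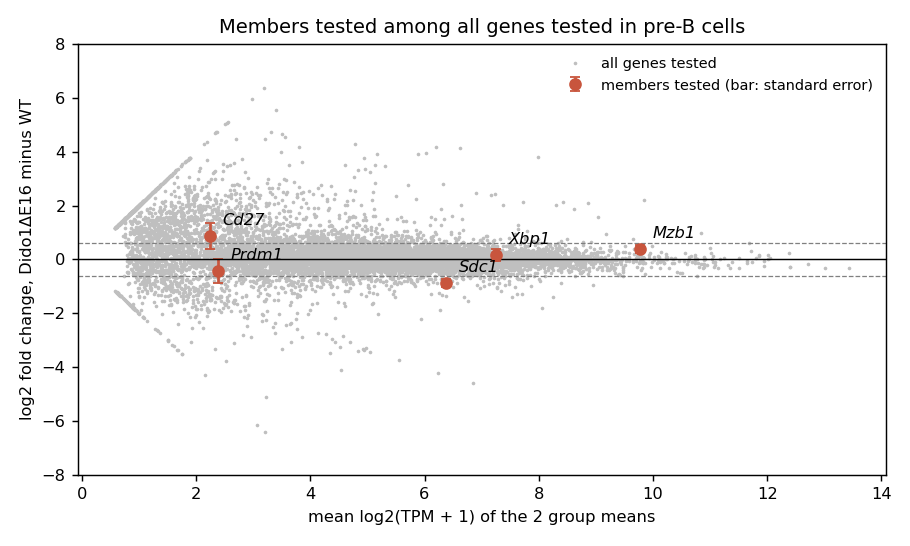
Log2 fold change of each gene, Dido1ΔE16 minus WT (vertical axis), against its mean log2(TPM + 1) (horizontal axis) for all 11870 genes tested (grey) and the 5 members tested (red, bars are the standard error). The members lie between -0.87 for Sdc1 and 0.88 for Cd27, among all genes tested, and dashed lines mark the fold change that a call needed.

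Coverage of single exons, on the same per-TPM scale, showed where along each gene the reads lay. Exons are numbered here from the lowest coordinate, so that the last exon of a minus-strand gene is the first transcribed. Among all exons at or above the coverage of 1 TPM, 31.0% lay higher and 10.6% lay lower in both Dido1ΔE16 libraries than in both WT libraries. In Mzb1 all 4 exons lay higher, and the first transcribed exon, exon 4, stood at 197 and 196 in WT and at 394 and 385 in Dido1ΔE16. The ratio of the means was 1.98 for this exon and between 1.21 and 1.41 for the other 3, which stood between 790 and 1095 in WT.

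In Sdc1 exons 3, 4 and 5 lay lower, with ratios of 0.596, 0.691 and 0.50, while exons 1 and 2 overlapped between the genotypes at ratios of 0.696 and 0.827. Exon 5, which holds most of the 3′ end of the RNA, stood at 123 and 109 in WT and at 60.6 and 55.2 in Dido1ΔE16. In Xbp1 exons 1 to 4 lay higher, with ratios of 1.17 to 1.39, and exon 5, the longest, overlapped at 164 and 251 in WT and 214 and 229 in Dido1ΔE16. Exon 1 of Xbp1 had 20.1 to 27.0 where exon 5 had 164 to 251, so coverage was lower at the 5′ end in all 4 libraries. Prdm1 had 3 of 8 exons lower and 0 higher, and Cd27 had 3 of 6 higher and 0 lower, at coverages that rest on few reads. Exons of one gene share their libraries and are not separate tests.

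Other genes of the plasma cell programme were described by a list. Of 16 plasma cell genes 14 were tested, 0 were called and 1 had an unadjusted p under 0.05, where 11.6% of all genes tested did. Log2 fold changes of the 14 were above 0 for 9 and below it for 5. Their median was 0.16, beside 0.069 over all genes tested with all 4 libraries. Without WT replicate 1 the list median was 0.066, and the median of all genes was not taken for that refit. Irf4, a factor that plasma cells require, stood at 478 and 628 TPM in WT and 442 and 369 TPM in Dido1ΔE16, a log2 fold change of -0.44 (SE 0.19, adjusted p = 0.506). Derl3, of the machinery that exports misfolded proteins from the endoplasmic reticulum, had the lowest value of the list at -0.79 (adjusted p = 0.437), and Slamf7, a surface receptor of plasma cells, the highest fold change where both groups were detected, at 0.42 (adjusted p = 0.529). Fkbp11, a prolyl isomerase of secretory cells, was listed at 0 in both WT libraries and at 3.44 and 2.44 TPM in the Dido1ΔE16 libraries. Tnfrsf17 (BCMA), the survival receptor of plasma cells, was listed at 0 in all 4 libraries.

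Genes of protein folding and stress in the endoplasmic reticulum, among them targets of Xbp1, were all expressed. All 27 were tested, 0 were called and 0 had an unadjusted p under 0.05, where 11.6% of all genes tested did. Of the 27, 12 had a log2 fold change above 0 and 15 below it, and the median was -0.11, or -0.022 without WT replicate 2. Ern1, the sensor that cuts Xbp1 RNA, stood at 9.27 and 7.14 TPM in WT and 8.33 and 12.8 TPM in Dido1ΔE16. Hspa5, the chaperone BiP, stood at 370 and 611 TPM in WT and 444 and 397 TPM in Dido1ΔE16, both mutant values inside the WT range. The extremes were Ssr1 at 0.33 (adjusted p = 0.748) and Ssr3 at -0.89 (adjusted p = 0.639), both subunits of the translocon-associated complex, and the Ssr3 value came from Dido1ΔE16 replicate 1 alone, at 61.1 TPM against 185 to 215 TPM in the other 3 libraries.

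Factors that hold the B cell state against plasma cell fate were abundant. Of 11 such genes 11 were tested, 0 were called and 2 had an unadjusted p under 0.05, where 11.6% of all genes tested did. Log2 fold changes were above 0 for 4 and below it for 7, with a median of -0.088, or -0.022 without WT replicate 2. Both Dido1ΔE16 values lay below both WT values for 6 of these genes and above them for 3. Over all genes tested 15.6% lay below and 27.1% above in this way. Pax5, which represses Prdm1 and Xbp1, stood at 805 and 835 TPM in WT and 800 and 786 TPM in Dido1ΔE16, and Bach2, another repressor of Prdm1, at 519 and 527 TPM in WT and 484 and 470 TPM in Dido1ΔE16. Bcl6, the germinal centre repressor, differed by 0.45 (SE 0.18, adjusted p = 0.474) and Irf8 by 0.38 (SE 0.11, adjusted p = 0.350). Id3, an inhibitor of E proteins, had the largest value at 0.55 (SE 0.12, adjusted p = 0.258), and Spib, an ETS factor, the lowest at -0.21 (adjusted p = 0.664).

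Of 8 memory B cell genes 5 were tested, 0 were called and 2 had an unadjusted p under 0.05, 1 above 0 and 4 below it, with a median log2 fold change of -0.55. Pdcd1lg2, the ligand PD-L2 that subdivides memory B cells, was listed at 0 in all 4 libraries. Ccr6, a chemokine receptor, stood at 4.59 and 3.02 TPM in WT and 1.03 and 1.14 TPM in Dido1ΔE16 (log2 fold change -1.18, adjusted p = 0.408), and Fas, the death receptor, stood at 1.87 and 2.06 TPM in WT and 4.17 and 3.03 TPM in Dido1ΔE16 (log2 fold change 0.62, adjusted p = 0.624). Fcer2a and Cr2, which are also markers of mature B cells, and Hhex, a homeobox factor, likewise had both Dido1ΔE16 values below both WT values. Over all genes tested 15.6% lay lower in this way and 11.6% had an unadjusted p under 0.05. The list median was -0.21 without WT replicate 1.

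Ligands, receptors and enzymes that work with Cd27, Cd80 and Nt5e were unevenly present. Of these 12 genes 8 were tested, 0 were called and 2 had an unadjusted p under 0.05, where 11.6% of all genes tested did. Log2 fold changes were above 0 for 5 and below it for 3. Their median was 0.16, or 0.039 without Dido1ΔE16 replicate 1 and 0.26 without WT replicate 2. Cd70, the ligand of Cd27, and Cd28 and Ctla4, the receptors of Cd80, were listed at 0 in all 4 libraries. Cd86, which shares those receptors with Cd80, stood at 5.60 and 5.68 TPM in WT and 6.94 and 9.31 TPM in Dido1ΔE16, and Cd274 (PD-L1), which binds Cd80, at 3.45 and 14.6 TPM in WT and 8.54 and 5.72 TPM in Dido1ΔE16. Entpd1 (CD39), which supplies AMP to Nt5e, stood between 21.8 and 24.4 TPM in all 4 libraries. Ada, which removes adenosine, had the highest value at 0.83 (SE 0.27, adjusted p = 0.370), and Traf5, an adaptor of Cd27, the lowest at -0.49 (SE 0.13, adjusted p = 0.327).

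**Figure D3:**
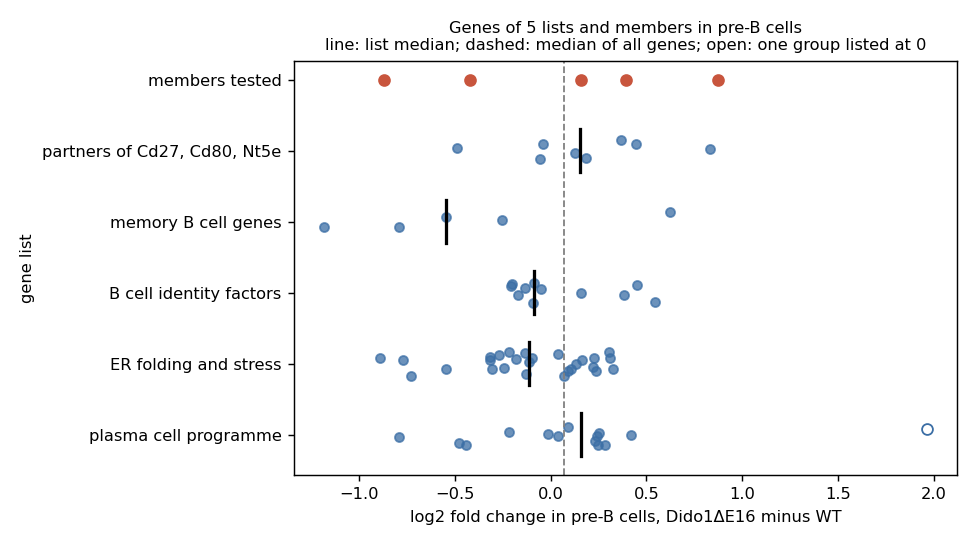
Log2 fold change in pre-B cells, Dido1ΔE16 minus WT (horizontal axis), of each tested gene of 5 lists (blue) and of the 5 members tested (red), with a black line at each list median and a dashed line at the median of all genes (0.069). Lists scatter around 0 with memory B cell genes lowest (median -0.55 over 5 genes), and the open circle is Fkbp11, listed at 0 in WT.

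In LSK cells the question was whether the same 8 genes lie in open chromatin before B cell commitment, and whether this differs in Dido1ΔE16. The libraries were unequal. WT had 10249256 and 52050898 tags and 27352 and 57739 MACS2 peaks, and Dido1ΔE16 had 22533077 and 44633938 tags and 13208 and 16329 MACS2 peaks. In WT, 6 and 8 of these genes had a peak, and in Dido1ΔE16 6 and 4 did. The gene with most peaks was Prdm1, with 9 and 21 in WT and 3 and 2 in Dido1ΔE16. Nt5e had 4 and 7 in WT and 2 and 3 in Dido1ΔE16, Cd80 had 2 and 5 against 0 and 0, and Xbp1 had 2 and 4 against 1 and 1. These 4 genes had fewer peaks in both Dido1ΔE16 libraries than in both WT libraries, as did 35.6% of all genes with a peak.

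The remaining 4 genes overlapped between genotypes. Jchain had 2 and 5 peaks in WT and 2 and 0 in Dido1ΔE16, Sdc1 had 3 and 9 against 4 and 2, Mzb1 had 0 and 1 against 2 and 0, and Cd27 had 0 and 1 against 0 and 0. When each library gave the same number of best-scoring peaks, 13208, none of the 8 genes had fewer peaks in both Dido1ΔE16 libraries, as against 7.16% of all genes with a peak. Prdm1 then had 4 and 3 peaks in WT and 3 and 2 in Dido1ΔE16, and Sdc1 had 1 and 1 against 4 and 2. By HOMER peaks 2 genes had fewer in both, Prdm1 and Xbp1, where 19.5% of all genes did. By peaks that the submitters annotated as promoter alone 0 did, where 11.3% of all genes did. Without WT replicate 1, the smallest library in tags, the count was 7 of 8 beside 74.6% of all genes, and without Dido1ΔE16 replicate 1 it was 6 of 8 beside 41.6% of all genes.

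**Figure D4:**
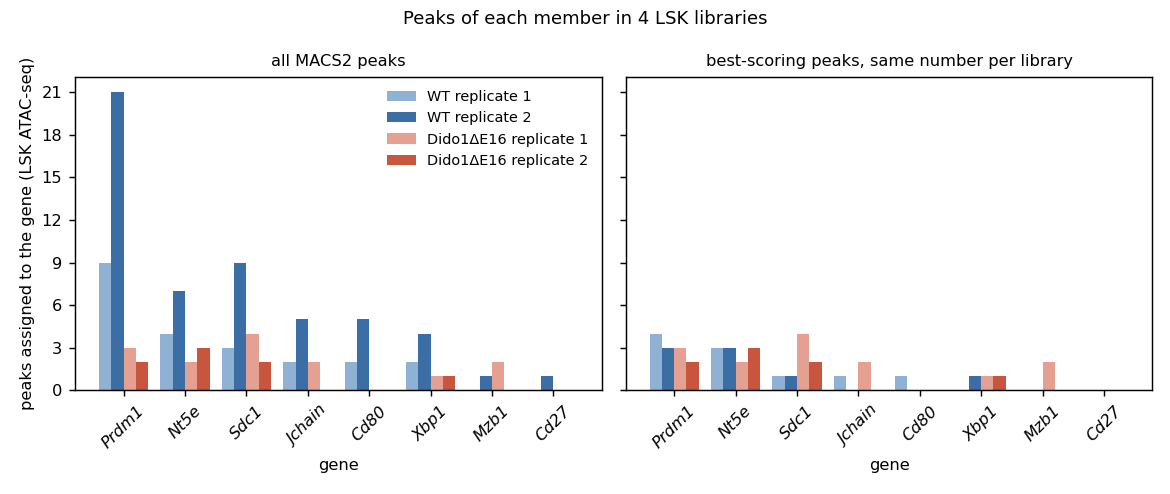
Peaks assigned to each gene (vertical axis) in the 4 LSK libraries, from all MACS2 peaks (left) and from the 13208 best-scoring peaks of each library (right). On the left Prdm1 rises to 9 and 21 peaks in WT against 3 and 2 in Dido1ΔE16, and on the right no gene has fewer peaks in both Dido1ΔE16 libraries than in both WT libraries.

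Joining overlapping MACS2 peaks gave 57 regions for the 8 genes, of which 28 were found in WT replicate 2 alone. Both WT libraries had a peak in 21 regions. Both Dido1ΔE16 libraries shared 5 of these, 1 of them had a peak in 5, and neither had one in 11 (52.4%), against 43.1% of all regions shared by the WT libraries. Promoter regions were those of the submitters' annotation. Of 5 such regions 0 lacked a peak in both Dido1ΔE16 libraries, where the share over all genes was 14.7%. Of 16 other regions 11 (68.8%) did, where the share over all genes was 60.8%. A Cd80 region among these 11 holds the start of the RefSeq gene, so the split depends on the gene model. The members' shares were thus near those of all genes in regions away from promoters.

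Prdm1 showed this division most fully. Its 21 regions had their centres between -272 kb (upstream) and 48.5 kb (downstream) from the start of uc007ezu.3, and 9 were shared by the WT libraries. Peaks in all 4 libraries marked 2 of these 9, the promoter (MACS2 scores 46 and 174 in WT, 97 and 43 in Dido1ΔE16) and a region at -70.8 kb, beside the start of the long model uc007ezw.1 (101 and 118 in WT, 56 and 50 in Dido1ΔE16). The other 7 had no peak in either Dido1ΔE16 library. They had scores of 20 to 41 in WT replicate 1 and of 25 to 97 in WT replicate 2, below the 174 of the promoter.

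**Figure D5:**
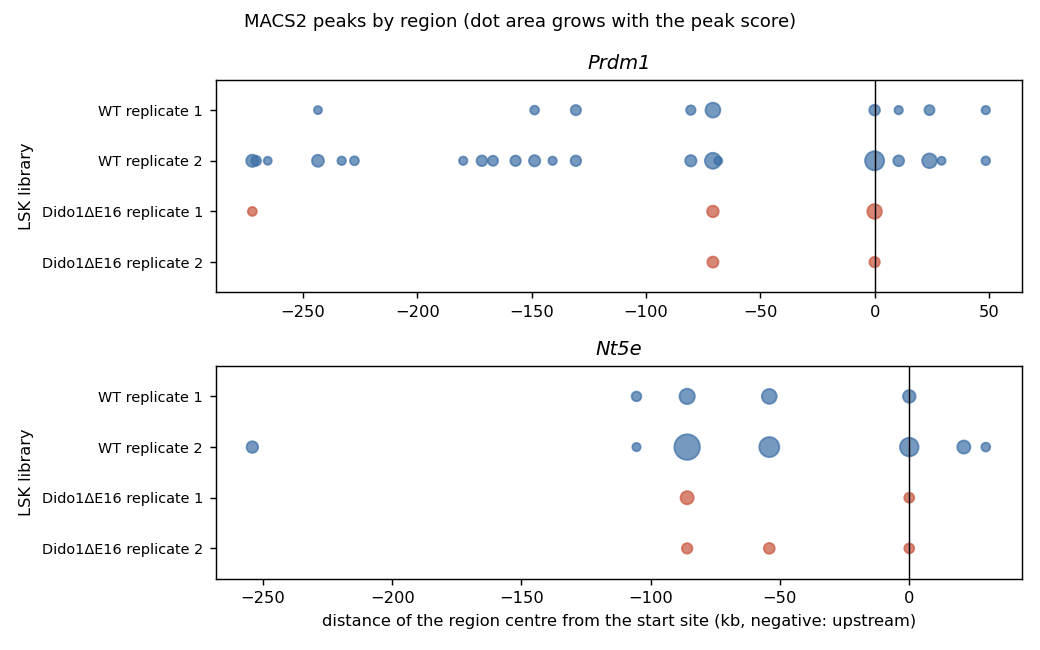
Accessible regions of Prdm1 (top) and Nt5e (bottom) in each LSK library, placed by the distance of the region's centre from the start site in kb (horizontal axis, negative upstream, start site at the vertical line), with dot area growing with the MACS2 score. In both genes the start site and 1 upstream region carry a dot in all 4 libraries, and most of the other dots are in the WT rows.

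Sequences of 7 regions are shown from GRCm38.p6, the build of the files (mm10), each read 5′ to 3′ on the strand of its gene. The first 3 are promoter windows of RefSeq genes, with the bases inside the peaks of all 4 libraries in capitals for Prdm1 and Nt5e. For Sdc1 the capitals mark the bases inside the peaks of both WT libraries and of Dido1ΔE16 replicate 1, since the peak of Dido1ΔE16 replicate 2 began after the window. They are shown because these promoters had a peak in every LSK library, whether the gene was then expressed in pre-B cells (Sdc1), low (Prdm1) or listed at 0 in 3 of 4 libraries (Nt5e).
Prdm1 promoter, chr10:44458699-44458998, minus strand: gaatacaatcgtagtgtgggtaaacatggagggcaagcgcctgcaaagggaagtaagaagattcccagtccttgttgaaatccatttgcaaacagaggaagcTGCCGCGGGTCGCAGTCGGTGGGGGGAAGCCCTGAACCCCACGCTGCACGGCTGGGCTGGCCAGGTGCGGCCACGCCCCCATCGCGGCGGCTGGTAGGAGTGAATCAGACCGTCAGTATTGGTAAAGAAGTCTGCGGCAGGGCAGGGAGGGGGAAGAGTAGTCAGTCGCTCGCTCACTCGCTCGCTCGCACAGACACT
Nt5e promoter, chr9:88327359-88327658, plus strand: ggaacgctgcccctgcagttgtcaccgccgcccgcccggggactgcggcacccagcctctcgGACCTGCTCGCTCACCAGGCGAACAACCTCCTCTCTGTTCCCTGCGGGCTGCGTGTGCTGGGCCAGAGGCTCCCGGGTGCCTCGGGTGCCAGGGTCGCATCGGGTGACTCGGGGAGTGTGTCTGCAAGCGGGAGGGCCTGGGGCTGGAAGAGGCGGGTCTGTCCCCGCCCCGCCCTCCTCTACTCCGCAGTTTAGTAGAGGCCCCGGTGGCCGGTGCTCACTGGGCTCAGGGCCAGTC
Sdc1 promoter, chr12:8771146-8771445, plus strand: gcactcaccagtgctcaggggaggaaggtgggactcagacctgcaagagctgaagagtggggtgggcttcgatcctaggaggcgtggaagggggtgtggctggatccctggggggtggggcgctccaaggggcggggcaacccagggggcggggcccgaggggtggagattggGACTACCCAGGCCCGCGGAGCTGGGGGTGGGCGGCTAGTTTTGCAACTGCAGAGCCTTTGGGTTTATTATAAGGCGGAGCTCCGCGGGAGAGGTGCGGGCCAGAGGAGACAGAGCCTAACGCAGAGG

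The next 4 are stretches common to the peaks of the libraries named, with matches to short motifs in capitals. The motifs, sought on both strands, were the core AGTGAAAG bound by Blimp1, the unfolded protein response element TGACGTGG bound by Xbp1 and 5 shorter ones. The ETS motif was searched as AGGAAGT and the RUNX motif as TGTGGTT. The letters AGATAA stood for a GATA motif and CACCTG for an E-box. The AP-1 motif was searched as TGANTCA. None of these matches overlapped another in the stretches shown. Upstream regions of Prdm1 and Nt5e had peaks in all 4 libraries. The Prdm1 region downstream of the gene and the Cd80 region had peaks in both WT libraries only, with scores of 39 and 97 for Prdm1 and of 36 and 47 for Cd80.
Prdm1 upstream region, chr10:44529375-44529662, minus strand: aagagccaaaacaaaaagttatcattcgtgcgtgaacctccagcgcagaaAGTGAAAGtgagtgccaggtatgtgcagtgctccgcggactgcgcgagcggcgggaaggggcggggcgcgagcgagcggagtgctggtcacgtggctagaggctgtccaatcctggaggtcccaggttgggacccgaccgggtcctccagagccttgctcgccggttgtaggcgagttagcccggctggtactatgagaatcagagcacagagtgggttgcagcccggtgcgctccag
Nt5e upstream region, chr9:88241624-88241923, plus strand: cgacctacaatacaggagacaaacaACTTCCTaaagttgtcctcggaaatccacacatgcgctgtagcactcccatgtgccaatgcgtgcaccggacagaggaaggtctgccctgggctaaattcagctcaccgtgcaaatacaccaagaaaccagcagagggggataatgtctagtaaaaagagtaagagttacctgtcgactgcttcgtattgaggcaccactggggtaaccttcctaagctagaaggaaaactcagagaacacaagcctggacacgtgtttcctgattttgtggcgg
Prdm1 downstream region, chr10:44434772-44434998, minus strand: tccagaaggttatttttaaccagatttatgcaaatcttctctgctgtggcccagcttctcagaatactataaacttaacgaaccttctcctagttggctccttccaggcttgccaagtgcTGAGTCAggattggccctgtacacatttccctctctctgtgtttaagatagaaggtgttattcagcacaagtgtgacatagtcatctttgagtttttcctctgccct
Cd80 region, chr16:38457184-38457478, plus strand: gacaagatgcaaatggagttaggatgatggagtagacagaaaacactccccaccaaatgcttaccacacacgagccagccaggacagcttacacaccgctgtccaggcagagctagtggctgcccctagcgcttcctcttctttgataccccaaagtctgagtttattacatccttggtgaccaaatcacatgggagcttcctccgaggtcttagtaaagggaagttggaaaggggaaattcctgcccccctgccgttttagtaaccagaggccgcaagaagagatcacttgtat

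The upstream Prdm1 region held 1 match to the Blimp1 core, which 2.27% of 39207 MACS2 peaks of WT replicate 2 held in their central 300 bases and 1.32% of all promoter windows held. The upstream Nt5e region held 1 ETS match, as did 17.9% of the peaks, and the downstream Prdm1 region 1 AP-1 match, as did 9.21%. In the promoter of Prdm1 there was 1 E-box (20.2% of promoters) and 1 AP-1 match (7.81%), and none of the 7 motifs matched in the promoters of Nt5e and Sdc1 or in the Cd80 region. A match describes letters and not binding. By the submitters' annotation the Cd80 region lies in intron 1 of uc007zez.2, while the RefSeq gene begins inside it.

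At the other genes the peaks near the start sites were fewer. Xbp1 had a promoter peak in both WT libraries (scores 26 and 130) and in Dido1ΔE16 replicate 1 (46), and in Dido1ΔE16 replicate 2 a peak of score 21 in intron 1 instead. Sdc1 had promoter peaks in all 4 libraries, with scores of 34 and 49 in WT and 42 and 20 in Dido1ΔE16. Jchain and Cd27 had a promoter peak in WT replicate 2 alone, the library with most tags, and Mzb1 had one in Dido1ΔE16 replicate 1 alone. Nt5e, besides its promoter (69 and 165 in WT, 38 and 37 in Dido1ΔE16), had a region with a peak in all 4 libraries at -85.9 kb from the start site, the highest-scoring member region in both WT libraries, with scores of 108 and 321 in WT and 76 and 43 in Dido1ΔE16.

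The number of peaks assigned to a gene in LSK cells and its RNA in pre-B cells were thus not ordered alike over the 8 genes. Mzb1, with most RNA at 685 to 1017 TPM, had between 0 and 2 peaks per LSK library, while Nt5e and Prdm1, with 2 to 21, stood between 0 and 7.10 TPM. These counts include peaks far from a start site. Within 50 kb of one, Prdm1 had 6 and 8 peaks in WT and 2 and 2 in Dido1ΔE16. Nt5e had 1 and 3 against 1 and 1, and Mzb1 0 and 1 against 2 and 0. By promoter peaks alone the genes were closer, with 2 in every library for Prdm1 and 1 for Nt5e and for Sdc1. Mzb1 had 0 and 0 promoter peaks in WT and 1 and 0 in Dido1ΔE16. The cell types differ between the assays, so the values are set side by side as a description.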

How the data were processed

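The authors aligned RNA-seq reads of pre-B cells with BWA-MEM to mm10, removed duplicates and quantified UCSC known genes with StringTie, without strand. The deposited values are TPM, FPKM and coverage of each transcript, not counts. For ATAC-seq the authors called peaks per library with MACS2, whose deposited score was used, and HOMER, and annotated them with ChIPseeker. Tables of the authors' own comparisons hold fold changes and p-values and were used only for symbols and tag totals.

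Transcripts of members were paired by the authors' tables. Other transcripts without a symbol took the GENCODE gene of the same strand with at least 50% of their exonic bases (56375 of 63753 had a symbol). TPM was summed per gene, and genes with a mean TPM of at least 1 were kept. The log2(TPM + 1) of these sums was fitted by genotype with limma 3.58.1 in R 4.3.3 (eBayes with trend, Benjamini-Hochberg adjustment). The fit was tested on simulated data, whose changes were larger than those of the members. FPKM of the authors served as an alternative. MACS2 peaks sharing at least 1 base were joined with bedtools 2.31.1. Coverage at 1 TPM was 0.462 to 0.649 reads per base.

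Named genes are the 8 members, 12 genes chosen for their roles, and the extremes of each list around the members. Extremes of the cell type marker lists were named only in part. Lists of mature B cell and plasmacytoid dendritic cell markers were also made, with 0 genes called, and are not described. Slamf7, Fcer2a, Cr2, Hhex, Pdcd1lg2, Cd28, Ctla4 and Ndufa5 were named after their values were seen. Some cell type markers, such as Igll1, Rag1, Ebf1, Thy1, Nkg7 and Cd2, were also named outside these rules. Members, lists and alternatives were chosen with earlier results of these data known.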

Additional observations from a re-analysis of the deposited data

How the results depend on the processing

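The count of 0 members called was the same under every alternative tried and without each library. All genes called numbered 6, and 87 with eBayes without a trend, 25 over single transcripts, 0 without a filter, 0 with a pseudocount of 0.1, 0 at an adjusted p under 0.01 with a log2 change of 1 or more, and 0 to 0 when libraries were left out in turn. With the replicate number as a block, 0 genes and 0 members were called, and the deviations of same-numbered libraries had a correlation of 0.0475 over genes, so the numbers were not taken to pair the libraries. Refitted fold changes of the tested members kept their sign in 58 cases and not in 2, Prdm1 at 0.0041 without WT replicate 2 (range -0.84 to 0.0041 over libraries left out) and Xbp1 at -0.096 without WT replicate 1 (range -0.096 to 0.42). The cause was not tested. Medians of log2 fold changes moved with the library left out, to between -0.81 and -0.21 for the memory B cell genes, 0.066 and 0.16 for the plasma cell genes, -0.12 and -0.022 for the endoplasmic reticulum genes and -0.077 and -0.022 for the identity factors, and that of the partners of Cd27, Cd80 and Nt5e lay between 0.039 and 0.26 over the libraries left out. A genotype reduced to 1 library is assumed to vary like the other genotype. The 4 genes with fewer MACS2 peaks in both Dido1ΔE16 libraries (35.6% of all genes with a peak) became 2 by HOMER peaks (19.5% of all genes). They became 0 by the same number of best-scoring peaks (7.16%) and 0 by peaks that the submitters annotated as promoter (11.3%). When libraries were left out the count was 4 to 7, the 7 without WT replicate 1 (74.6%). Peak lists carry no read counts, and 2 libraries per genotype limit every comparison.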

Other observations

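Peaks in LSK cells were also counted for the lists around the members. All 16 plasma cell genes had a MACS2 peak in at least 1 library, and 5 of them had fewer peaks in both Dido1ΔE16 libraries than in both WT libraries. The same held for 7 of 27 genes of the endoplasmic reticulum, for 4 of 11 B cell identity factors, for 4 of the 7 memory B cell genes with a peak and for 6 of 12 partners of Cd27, Cd80 and Nt5e, where the share over all genes with a peak was 35.6%. Of the 8 memory B cell genes 5 and 7 had a peak in WT and 2 and 2 in Dido1ΔE16, and 1 had none in any library. Of 9 markers of LSK cells, 7 and 9 had a peak in WT and 6 and 6 in Dido1ΔE16. For the partners the counts were 11 and 12 against 7 and 8. The other lists overlapped, with 12 and 16 against 13 and 8 plasma cell genes and 26 and 24 against 23 and 25 of the endoplasmic reticulum. Identity factors had 9 and 11 against 9 and 8. Over all genes MACS2 peaks numbered 27352 and 57739 in WT and 13208 and 16329 in Dido1ΔE16. The share of all genes with a peak in each library was not taken. The counts of genes with a peak, apart or overlapping, are therefore not read as a result about these lists.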
